A study of Homo sapiens with 21 samples.

Results

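SAMD9 and 8 other genes of the interferon system were described over 7 doses of coumarin: SAMD9L, IRF1, IRF9, ISG15, IFIT1, IFIT3, OAS3 and DDX58. They are 9 of the 58735 genes in the table and were found by their gene symbols. SAMD9 was chosen by its lower level at 100 µM than at 0 µM in these same libraries, and the other 8 were picked to ask whether other interferon targets share that fall. Of the 58735 genes, 16196 had enough counts to be tested, and all 9 of these passed that filter.

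RNA was sequenced from cells labelled HepG2, an established human line from a liver tumour, kept for 6 h in serum-free medium. The 7 groups held 3 libraries each: untreated cells at 0 µM, and cells given coumarin at 0.001, 0.01, 0.1, 1, 10 or 100 µM. Coumarin is a plant-derived fragrance compound. The design text calls the 3 libraries of a dose biological replicates, and nothing more is said of separate cultures, so p-values measure the spread between these libraries. The labels name no added interferon and no altered gene in any group. Library totals ranged from 27984517 to 43704155 counts, and 3 counts correspond to 0.0686 to 0.107 CPM, which are counts scaled by the library total (counting error only).

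The marker levels went against the label: hepatocyte markers, which HepG2 cells are known to express, were nearly absent. None of 18 hepatocyte markers had enough counts to be tested, 17 of them had at most 21 reads over all 21 libraries, and ALB, which encodes albumin, had 0. The summed level of the 18 was 0.0589 to 0.179 CPM at 0 µM and 0.100 to 0.413 at 100 µM. The 8 leukocyte markers summed to 2.99 to 3.86 CPM at 0 µM and 2.57 to 3.51 at 100 µM, most of it CSF1R, and CD3E and MS4A1 were among those with no reads. The 4 endothelial markers summed to 1.12 to 1.23 CPM at 0 µM and 0.590 to 0.887 at 100 µM, with none at 0 reads. The 7 mesenchymal markers summed to 1306 to 1350 CPM at 0 µM and 1240 to 1302 at 100 µM. The endothelial and mesenchymal sums were thus lower in each library at 100 µM than in each control, as SAMD9 was. The mesenchymal sum followed COL3A1 (952.3 to 884.9 CPM). Of the 6 markers tested 3 lay below 0 and 3 above, with VIM at a log2 change of 0.00 and COL1A1 at 0.20. At an adjusted p under 0.05 (edgeR quasi-likelihood test), 2 of the 6 were called lower and 0 higher. Of all genes tested, 4.8% were called lower and 3.66% higher. The endothelial sum was mostly CDH5 (1.04 to 0.628 CPM), the 1 of the 4 tested, which was called lower at a log2 change of -0.72. The part of these markers in the results below was not tested. In bulk RNA, fewer cells of a kind and less RNA per cell cannot be told apart.

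Interferons are secreted signals of antiviral defence. Their receptors act through Janus kinases, and a complex of STAT proteins with IRF9 then binds a DNA element, the interferon-stimulated response element, near the genes it induces. Interferon gamma acts through STAT proteins without IRF9 at another element, the gamma-activated site. Interferon-stimulated genes also have a basal level without added interferon, which is what was measured here. SAMD9 and its neighbour SAMD9L encode large cytoplasmic proteins that restrict poxviruses and limit cell growth, and inherited mutations of either cause disorders of the bone marrow.

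The promoters are shown because the search for a shared element rests on their letters. All 9 genes matched a window of RefSeq (GRCh38.p14), DDX58 under its newer symbol RIGI, and IFIT3 had 2 windows, which gives 10. Each window held 250 bases before the start given by RefSeq and 50 after it. The ISG15 window lies inside the longer gene that was counted, chr1:1001138-1014540, and the downstream window of IFIT3 likewise lies inside its counted gene. The core of the interferon-stimulated response element was searched as GAAANNGAAA and the gamma-activated site as TTCNNNGAA, on both strands. Below are the 250 bases before the start, 5′ to 3′ on the strand of the gene, with matches of the core or its reverse complement in capitals.
SAMD9: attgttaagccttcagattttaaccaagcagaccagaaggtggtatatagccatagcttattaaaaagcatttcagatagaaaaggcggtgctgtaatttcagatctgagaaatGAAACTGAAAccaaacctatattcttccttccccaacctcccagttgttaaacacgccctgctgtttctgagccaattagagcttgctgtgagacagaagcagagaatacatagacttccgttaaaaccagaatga
SAMD9L: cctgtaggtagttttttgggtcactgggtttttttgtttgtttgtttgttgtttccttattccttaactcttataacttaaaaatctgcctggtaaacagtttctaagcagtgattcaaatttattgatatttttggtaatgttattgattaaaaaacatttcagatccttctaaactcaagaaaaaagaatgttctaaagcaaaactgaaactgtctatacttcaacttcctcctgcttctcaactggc
OAS3: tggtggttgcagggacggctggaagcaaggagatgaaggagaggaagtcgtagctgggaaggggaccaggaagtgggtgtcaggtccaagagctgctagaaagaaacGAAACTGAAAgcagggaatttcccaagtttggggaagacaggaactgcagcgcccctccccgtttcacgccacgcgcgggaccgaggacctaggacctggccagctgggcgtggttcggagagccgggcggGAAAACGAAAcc
ISG15: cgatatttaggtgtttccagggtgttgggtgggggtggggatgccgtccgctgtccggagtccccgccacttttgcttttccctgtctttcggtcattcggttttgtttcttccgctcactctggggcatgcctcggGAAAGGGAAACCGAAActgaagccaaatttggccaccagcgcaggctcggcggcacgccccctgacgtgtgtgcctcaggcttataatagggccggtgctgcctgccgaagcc
IFIT1: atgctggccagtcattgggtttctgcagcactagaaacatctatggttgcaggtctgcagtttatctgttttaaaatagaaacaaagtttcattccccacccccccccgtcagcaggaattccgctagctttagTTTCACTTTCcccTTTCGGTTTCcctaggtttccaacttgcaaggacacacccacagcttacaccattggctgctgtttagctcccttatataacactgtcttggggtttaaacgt
These are chr7:93117980-93118229 for SAMD9, chr7:93148386-93148635 for SAMD9L, both on the minus strand, and chr12:112938224-112938473 for OAS3, chr1:1013247-1013496 for ISG15 and chr10:89392373-89392622 for IFIT1, on the plus strand.

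The core was found in 6 of the 10 windows: those of SAMD9, OAS3, ISG15 and IFIT1 and both of IFIT3. Of all 35116 RefSeq promoter windows of this length, 3.57% held it. SAMD9 had 1 match, GAAACTGAAA, that began 136 bases before its start, and OAS3 had the same 10 letters 143 bases before its own, with another match 12 bases before the start. ISG15 had 2 overlapping matches and IFIT1 had 2 on the other strand. SAMD9L, IRF1, IRF9 and DDX58 had none. The gamma-activated site was found in the windows of IRF1 and IRF9, and in 7.66% of all windows. A match is a run of letters and not a measured binding site, and the part of these matches in the levels below was not tested.

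Levels between genes were compared per gene length, in the FPKM of the authors (fragments per kilobase of gene, scaled by library), as a mean ± SD over 21 libraries. ISG15, a ubiquitin-like modifier, stood highest at 2.41 ± 0.53 FPKM. IFIT3, which binds IFIT1 and aids its RNA binding, followed at 0.784 ± 0.11, and the transcription factor gene IRF1 at 0.518 ± 0.050. IFIT1, whose protein binds viral RNA ends, SAMD9 and OAS3, an enzyme that activates RNase L, stood close together at 0.453 ± 0.076, 0.428 ± 0.096 and 0.423 ± 0.058. IRF9 was at 0.244 ± 0.047, DDX58, the RNA sensor RIG-I, at 0.138 ± 0.040, and SAMD9L lowest at 0.0421 ± 0.013. The ranges of neighbours in this order overlapped except between ISG15 and IFIT3 and between DDX58 and SAMD9L. IFIT1 exceeded SAMD9 in 12 of 21 libraries and SAMD9 exceeded OAS3 in 12 of 21, so these 3 did not differ beyond their spread.

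**Figure D1:**
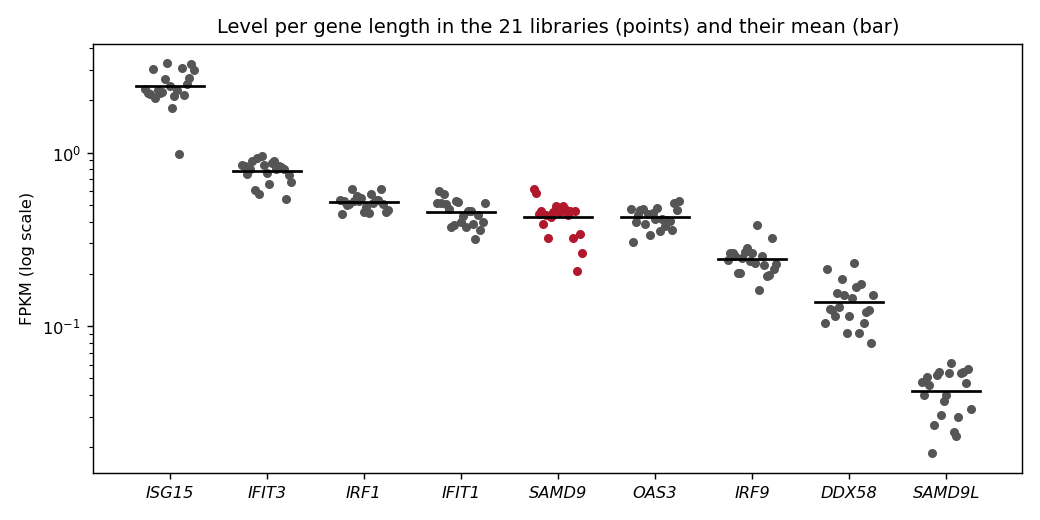
Level of each of the 9 genes in FPKM, on a log axis, with a point for each of the 21 libraries and a bar at their mean. ISG15 stands highest at a mean of 2.41 FPKM, SAMD9L lowest at 0.0421, and IFIT1, SAMD9 and OAS3 lie close together between 0.423 and 0.453.

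These are low levels, which sets the precision. SAMD9 had 42 to 148 counts per library, with a median of 101. IRF1, OAS3, ISG15, IFIT1 and IFIT3 had medians of 136, 120, 75, 73 and 68 counts. IRF9, DDX58 and SAMD9L had medians of 32, 19 and 11, and their changes were estimated with the widest intervals of the 9. The correlation of SAMD9 with the log2 total count over the 21 libraries was r = 0.202, a description in which all points share the dose series.

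SAMD9 lies at chr7:93099513-93118023 on the minus strand (GRCh38, as in the files) and overlaps no other annotated gene. Its level is given below as CPM after TMM scaling, which corrects library totals for composition. At 0 µM the 3 libraries held 4.08, 3.92 and 2.97 CPM, and at 100 µM they held 1.39, 2.27 and 1.77. The means were 3.66 ± 0.60 and 1.81 ± 0.45 (SD, n = 3), and the groups did not overlap. The fitted log2 change at 100 µM against 0 µM was -1.0 (SE 0.17, 95% interval -1.36 to -0.64), a fold of 0.500. This is the contrast that selected SAMD9, so the value is a description and carries no test. By rank from the lowest, this change was 86 of the 16196 genes tested.

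The doses between did not form a slope in SAMD9. At 0.001 µM the libraries held 3.07, 2.60 and 2.88 CPM, at 0.01 µM 2.15, 2.83 and 3.07, and at 0.1 µM 3.25, 3.06 and 3.03. At 1 µM they held 3.33, 3.17 and 2.90 CPM and at 10 µM 3.05, 2.15 and 3.08. The 12 libraries of 0.001 to 1 µM averaged 2.94 ± 0.32 CPM, below the control mean and above that of 100 µM. Of the 18 libraries below 100 µM, 2 lay under the highest 100 µM library: 0.01 µM replicate 1 and 10 µM replicate 2.

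The size of the difference at 100 µM depended on what it was set against. Against the 12 pooled libraries of 0.001 to 1 µM the log2 change of SAMD9 was -0.69 (SE 0.14, 95% interval -0.98 to -0.39), again with no test because the 100 µM libraries are those of the choice. At 0.001, 0.01, 0.1, 1 and 10 µM against 0 µM the log2 changes of SAMD9 were -0.36, -0.45, -0.23, -0.22 and -0.39. None of these 5 passed the edgeR quasi-likelihood test, with adjusted p of 0.58, 0.54, 0.83, 1.00 and 0.31. They share the same 3 control libraries, of which 2 held the highest SAMD9 levels of all 21. Those controls are also the ones of the choice, so these p-values are a description and carry no test of SAMD9.

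**Figure D2:**
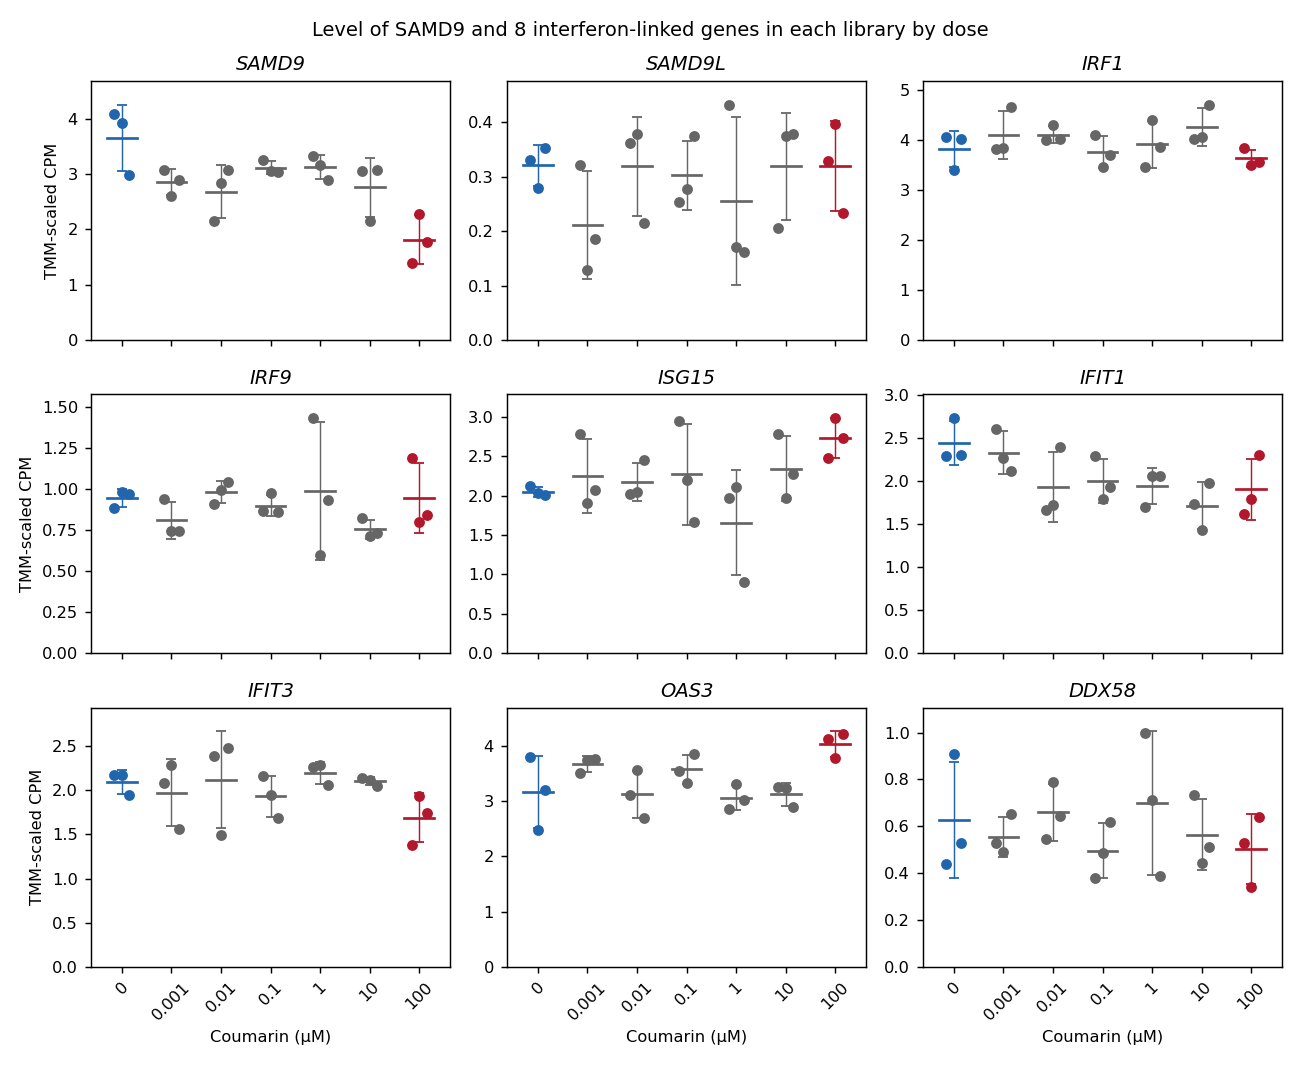
TMM-scaled CPM of each gene (y axis, from 0) by coumarin dose in µM (x axis, equally spaced categories), with a point per library, a bar at the mean and whiskers of 1 SD (n = 3). For SAMD9 the libraries at 100 µM (red) lie between 1.39 and 2.27, under all controls (blue, 2.97 to 4.08), and the other 8 genes show no such gap in the same direction except IFIT3, by a margin of 1.93 to 1.94.

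In the same contrast the other 8 genes spread to both sides of 0. SAMD9 was the 1 gene of the 9 past the threshold at 100 µM against 0 µM, where 8.47% of all genes tested were called (4.8% lower and 3.66% higher), and nothing is read from that count. The log2 changes of the other 8 ran from -0.35 to 0.41 with a median of -0.05, beside a median of 0.00 over all genes tested. The numbers of called genes over the whole table were unstable: 1371 in all, and 787, 761, 681 and 878 without 0 µM replicate 1, 0 µM replicate 2, 100 µM replicate 1 and 100 µM replicate 3.

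SAMD9L, the nearest relative of SAMD9 and its neighbour at chr7:93130055-93148369, had nearly the same mean at both doses. Its libraries held 0.33, 0.28 and 0.35 CPM at 0 µM and 0.33, 0.40 and 0.23 at 100 µM, which overlapped. The log2 change was -0.01 (SE 0.41, 95% interval -0.85 to 0.82). With 5 to 14 counts per library, changes of either sign inside that interval remain compatible with the values. Without 100 µM replicate 2 the value was -0.21, and without 100 µM replicate 3 it was 0.18.

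The transcription factors also overlapped between the doses. IRF1 (chr5:132481609-132490798), induced by interferon gamma, held 4.05, 3.40 and 4.00 CPM at 0 µM and 3.83, 3.50 and 3.55 at 100 µM, a log2 change of -0.08 (SE 0.12, 95% interval -0.33 to 0.17). IRF9 (chr14:24161053-24166565), a DNA-binding subunit of the complex with STAT proteins, held 0.88, 0.98 and 0.97 CPM at 0 µM and 1.19, 0.80 and 0.84 at 100 µM, a log2 change of -0.01 (SE 0.25). IRF9 overlaps AL136295.5 on the same strand (415 reads in all against 654 of IRF9), so reads of the 2 may have been exchanged. IRF1 had the narrowest interval of the 9. With 1 library left out, IRF1 ran from -0.16 (without 0 µM replicate 2) to -0.03 (without 0 µM replicate 1), and IRF9 from -0.20 to 0.10 (without 100 µM replicates 1 and 2).

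The IFIT genes lay on the side of SAMD9, with smaller values. IFIT1 (chr10:89392546-89406486) held 2.29, 2.73 and 2.30 CPM at 0 µM and 1.62, 1.79 and 2.30 at 100 µM, a log2 change of -0.35 (SE 0.17, 95% interval -0.70 to 0.01). IFIT3 (chr10:89327894-89340971) held 2.18, 2.17 and 1.94 CPM at 0 µM and 1.39, 1.93 and 1.75 at 100 µM, a log2 change of -0.30 (SE 0.19, 95% interval -0.68 to 0.08). The groups overlapped by a narrow margin for IFIT1 and were parted by 0.01 CPM for IFIT3. With 1 library left out IFIT1 ran from -0.51 to -0.24 and IFIT3 from -0.41 to -0.18, the last without 100 µM replicate 1. Both genes overlap LIPA, a lysosomal lipase gene on the other strand with 59975 reads in all and a log2 change of -0.02, and whether strand was used in the counting is not given in the sources used here.

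ISG15 and OAS3 lay on the opposite side. ISG15 (chr1:1001138-1014540) held 2.12, 2.03 and 2.00 CPM at 0 µM and 2.47, 2.98 and 2.74 at 100 µM, a log2 change of 0.41 (SE 0.22, 95% interval -0.03 to 0.86). All 3 libraries at 100 µM were above the controls, but 3 of the 18 libraries at other doses also exceeded the lowest of them. OAS3 (chr12:112938352-112973249) held 3.80, 2.49 and 3.21 CPM at 0 µM and 4.12, 3.78 and 4.22 at 100 µM, a log2 change of 0.34 (SE 0.13, 95% interval 0.07 to 0.61), and the groups overlapped by a narrow margin. The log2 change of OAS3 was 0.20 without 0 µM replicate 2 and 0.50 without 0 µM replicate 1, and only in the latter case of the 21 was it called.

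DDX58 (chr9:32455705-32526324) held 0.44, 0.91 and 0.53 CPM at 0 µM and 0.53, 0.34 and 0.64 at 100 µM, a log2 change of -0.29 (SE 0.35, 95% interval -1.01 to 0.43). The groups overlapped, and the sign was not stable: the value was 0.05 without 0 µM replicate 2 and -0.51 without 100 µM replicate 3. Over the 9 genes, the 0 µM and 100 µM libraries did not overlap for SAMD9 and IFIT3, lower, and ISG15, higher, where 27.0% of all genes tested did not overlap in either direction. The log2 ratio of SAMD9 to each other gene in the same library did not overlap between 0 and 100 µM for 7 of the 8, all but DDX58. SAMD9 was chosen by its fall in these libraries, which itself lowers each ratio, and no share over all genes was taken. Nothing is read from that count.

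Against the 12 pooled libraries of 0.001 to 1 µM, the values at 100 µM kept those sides except for SAMD9L and IRF9, which stood within 1 SE of 0. The log2 changes were 0.40 (SE 0.17) for ISG15, 0.27 (SE 0.10) for OAS3, -0.27 (SE 0.15) for IFIT3, -0.25 (SE 0.28) for DDX58, -0.13 (SE 0.10) for IRF1 and -0.10 (SE 0.14) for IFIT1. IFIT1 was thus nearer to 0 against the treated libraries than against the controls, while ISG15, OAS3 and IFIT3 moved by less than their SE.

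The comparison that shares no library with the choice was 10 µM against the pooled 0.001 to 1 µM. No gene of the 9 was called there by the edgeR quasi-likelihood test, where 0.161% of all genes were called. At an unadjusted p under 0.05 stood 0 of the 9, and 1429 of all 16196 genes tested. For SAMD9 the log2 change was -0.08 (SE 0.13, 95% interval -0.35 to 0.19, adjusted p = 0.91). The 12 libraries of 0.001 to 1 µM held 2.15 to 3.33 CPM, with a median of 3.04. The 10 µM libraries lay inside that range except replicate 2, which lay just under it at 2.146 CPM against 2.148. The other 8 ran from -0.27 for IRF9 (SE 0.20) to 0.26 for SAMD9L (SE 0.33), with adjusted p of 0.64 to 0.97. IFIT1 stood at -0.24 (SE 0.14), ISG15 at 0.18 (SE 0.17), IRF1 at 0.11 (SE 0.09), OAS3 at -0.10 (SE 0.11), DDX58 at -0.08 (SE 0.27) and IFIT3 at 0.03 (SE 0.14). The lowest end of the 9 intervals was -0.69, for IRF9, and a p that misses the threshold does not show that a level was the same.

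**Figure D3:**
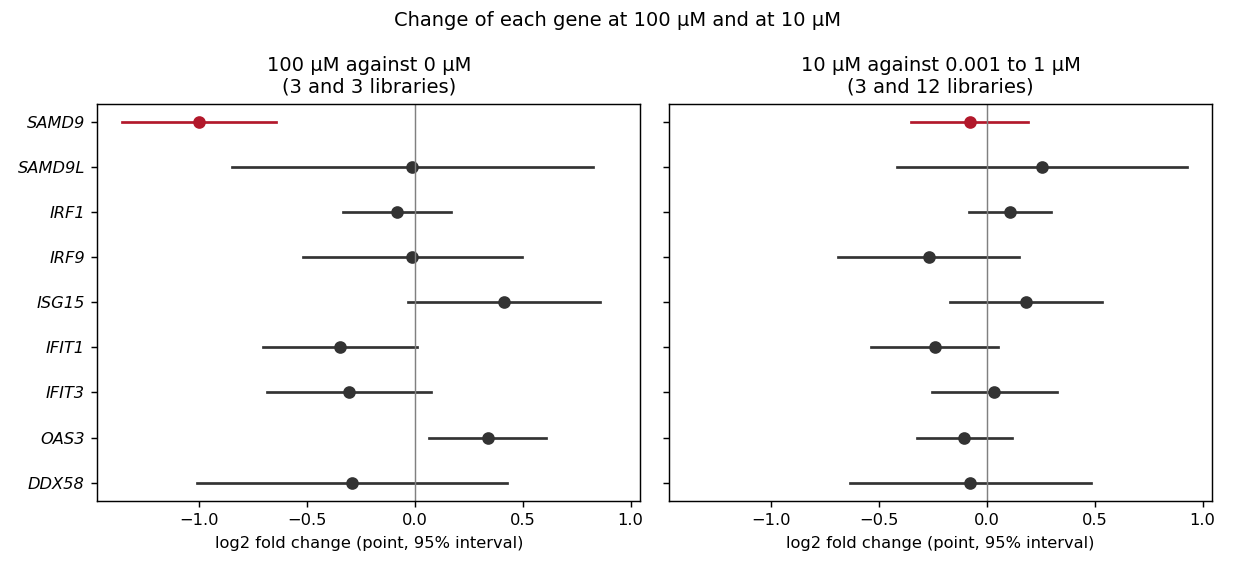
Log2 fold change of each gene (points) with its 95% interval (lines) at 100 µM against 0 µM (left) and at 10 µM against the pooled 0.001 to 1 µM (right), on the same axis. At 100 µM SAMD9 stands at -1.0 and the other 8 between -0.35 and 0.41, and at 10 µM all 9 lie between -0.27 and 0.26.

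Whether SAMD9 moved apart from the others was tested by the log2 ratio of SAMD9 to each gene in the same library, at 10 µM against 0.001 to 1 µM. An exact two-sided permutation test over 455 splits of 3 against 12 libraries gave differences from -0.29 (SAMD9L and ISG15) to 0.14 (IFIT1). The adjusted exact p over the 8 ratios ran from 0.656 to 0.954, and the smallest unadjusted one was 0.149, for ISG15. No difference between SAMD9 and another of these genes was detectable in that comparison at this depth.

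Along the 5 doses from 0.001 to 10 µM, the slope per 10-fold of dose was 0.02 on the log2 scale for SAMD9 (SE 0.04, adjusted p = 0.93 by the edgeR quasi-likelihood test). None of the 9 was called, where 0.272% of all genes were. The steepest fall was that of IFIT1 at -0.08 (SE 0.04, adjusted p = 0.46, edgeR). IFIT1 was the 1 gene of the 9 with an unadjusted p under 0.05, which 1677 of all 16196 genes tested had. Its dose means were 2.33 ± 0.25, 1.93 ± 0.41, 2.00 ± 0.26, 1.94 ± 0.21 and 1.71 ± 0.27 CPM (SD, n = 3) from 0.001 to 10 µM, and 1.90 ± 0.35 at 100 µM. IFIT1 thus had its lowest mean at 10 µM, not at 100 µM.

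Against the controls, none of the 9 was called at 0.001 or 1 µM, where 0.0% of all genes were, at 0.01 or 0.1 µM, with 0.00617% each, or at 10 µM, with 0.327%. At 0.001, 0.01, 0.1 and 1 µM 1, 1, 0 and 0 of the 9 had an unadjusted p under 0.05 (edgeR). SAMD9 was the gene at both 0.001 and 0.01 µM, and at 10 µM 2 had such a p, SAMD9 and IFIT1. Of all 16196 genes tested, 1364, 1427, 1015, 633 and 1976 had such a p from 0.001 to 10 µM. At 10 µM the log2 change of IFIT1 was -0.49 (SE 0.18, adjusted p = 0.24, edgeR). These comparisons share the control libraries with each other and with the contrast at 100 µM, which selected SAMD9. The p-values of SAMD9 against these controls are thus a description and carry no test.

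The wider interferon system was followed in 7 lists that hold 134 genes beside the 9, of which 85 were tested. At 100 µM against 0 µM 3 of the 85 were higher, 7 were lower and 75 did not pass the test (edgeR quasi-likelihood, threshold 0.05 on the adjusted p), with a median log2 change of -0.01 beside 0.00 over all genes. For all genes the shares called lower and higher were 4.8% and 3.66%. At 10 µM against 0.001 to 1 µM and along the slope, 0 of the 85 were called. The 10 calls at 100 µM became 5, 3, 3 and 6 without 0 µM replicate 1, 0 µM replicate 2, 100 µM replicate 1 and 100 µM replicate 3.

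The interferon genes themselves were almost without reads. Of 10 interferon genes, 7 had no read in any library and 1, IFNE, was tested, at -0.33 (SE 0.41, adjusted p = 0.69, edgeR). All 9 receptor and kinase genes were tested and 1 fell: IFNAR1, a chain of the type I receptor, from 66.3 ± 2.6 to 59.2 ± 1.2 CPM, a log2 change of -0.16 (SE 0.04, adjusted p = 0.0089, edgeR). Among 8 tested STAT and IRF genes, IRF7, which amplifies interferon production, rose from 3.05 ± 0.14 to 4.27 ± 0.19 CPM (0.48, SE 0.13, adjusted p = 0.020, edgeR), and STAT3 fell from 302.4 ± 7.7 to 276.9 ± 1.1 (-0.13, SE 0.03, adjusted p = 0.011, edgeR). The other 6, IRF1 and IRF9 among them, did not pass.

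Of 11 tested sensors and adaptors, 1 changed. TRIM25, a ubiquitin ligase that aids RIG-I signalling, rose from 116.7 ± 4.6 to 139.7 ± 1.3 CPM, a log2 change of 0.26 (SE 0.04, adjusted p = 4.52e-05, edgeR). TRIM25 overlaps other genes on both strands, DGKE among them. It stood at 0.05 (adjusted p = 0.64) at 10 µM against 0.001 to 1 µM.

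SAMD9 is an effector gene but carries no test here, because this contrast selected it. Of 40 tested effector genes outside those of the report, 5 were lower, 1 was higher and 34 did not pass, with a median of -0.01. For all genes the shares called lower and higher were 4.8% and 3.66%, and nothing is read from the count of 5. TDRD7, whose protein restricts autophagy used by viruses, fell from 5.95 ± 0.49 to 4.35 ± 0.16 CPM (-0.45, SE 0.11, adjusted p = 0.0069, edgeR). Its means at the doses between, 4.38 to 5.02 CPM, were also below the control mean. SLFN11, which cleaves transfer RNA, fell by 0.18 (SE 0.05, adjusted p = 0.011, edgeR), and DTX3L, a ubiquitin ligase gene that overlaps its partner PARP9 on the other strand, fell by 0.40 (SE 0.11, adjusted p = 0.016, edgeR). OASL, an OAS relative, had a lower value than TDRD7, at -0.79 (SE 0.33, adjusted p = 0.14, edgeR), and did not pass; it was chosen after its value was seen. HELZ2, a nuclear receptor coactivator helicase, rose from 2.27 ± 0.27 to 3.37 ± 0.14 CPM (0.56, SE 0.16, adjusted p = 0.026, edgeR).

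The other 2 falls lie outside the rule for named genes and were chosen after their values were seen. ZC3HAV1, which binds viral RNA rich in CpG, fell by 0.17 (SE 0.05, adjusted p = 0.017, edgeR). IFIT5, a relative of IFIT1 and IFIT3 at chr10:89414586-89421001, held 22.5, 23.3 and 23.0 CPM at 0 µM and 19.9, 19.8 and 20.8 at 100 µM, a log2 change of -0.19 (SE 0.06, adjusted p = 0.042, edgeR). IFIT2, the other IFIT gene tested and likewise chosen afterwards, did not pass, at -0.24 (SE 0.15, adjusted p = 0.37, edgeR), nor did IFIT1 and IFIT3.

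The remaining lists held no call. None of 4 tested negative regulators passed, with SOCS3 at 0.07 (SE 0.05) and PTPN2 at -0.03 (SE 0.05), and 0 of 15 tested class I antigen presentation genes passed, with B2M at -0.02 (SE 0.04) and PSME1 at 0.02 (SE 0.05).

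Most of these calls were lost with 1 library or another left out, while the log2 changes of the called genes kept their sign. IRF7 ran from 0.45 to 0.52, IFIT5 from -0.21 to -0.17 and DTX3L from -0.50 to -0.31. TRIM25 was called with each of the 21 libraries left out. TDRD7 was not called without 0 µM replicate 2, IFNAR1 without 0 µM replicate 2 or 100 µM replicate 1, and STAT3 and SLFN11 without 0 µM replicate 3 or 100 µM replicate 1. DTX3L was not called without 0 µM replicate 1, 0 µM replicate 2 or 100 µM replicate 3. IRF7 and ZC3HAV1 were not called without any of 0 µM replicates 1 and 2 and 100 µM replicates 1 and 3, nor HELZ2 without any of 0 µM replicates 1 and 2 and 100 µM replicates 1 and 2. IFIT5 was called with 11 of the 21 libraries left out in turn, its adjusted p (edgeR) running from 0.030 to 0.15. Under other processing the calls of IFIT5 and STAT3 were lost with no filter on low counts, that of IFIT5 also with the compared libraries alone, and that of HELZ2 with limma on log2(FPKM + 0.1). SAMD9 had log2 changes of -1.20 to -0.85 over the same 21.

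**Figure D4:**
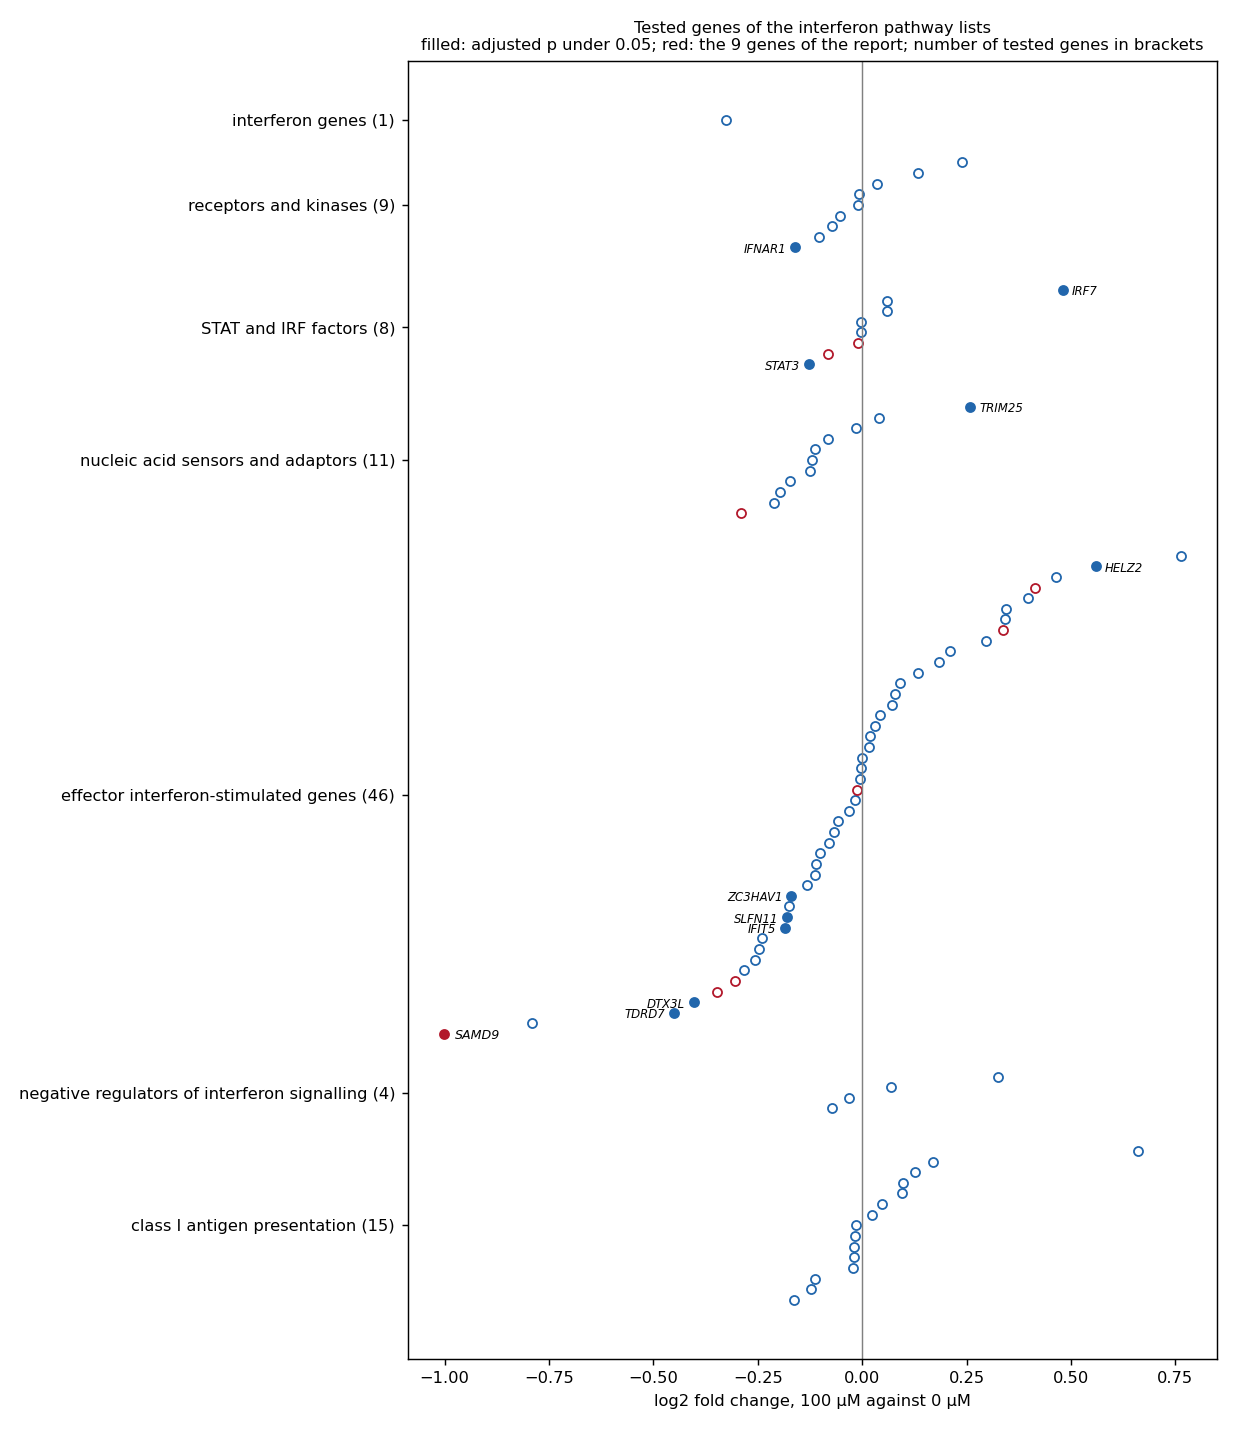
Log2 fold change at 100 µM against 0 µM (x axis) of the 94 tested genes of the 7 interferon lists, 1 row per gene sorted within its list, with genes past the threshold filled and the 9 genes of the report in red. SAMD9 is the lowest at -1.0, a value that carries no test because this contrast selected it. The 10 other filled points lie between -0.45 and 0.56. The unfilled points farthest out, OASL at -0.79 and IFI44 at 0.76, did not pass.

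Neighbours on the chromosome were set beside SAMD9. Of the genes that start within 500 kb, 4 others were tested. CDK6, a cell cycle kinase gene, stood at -0.10 (SE 0.05), SAMD9L at -0.01 (SE 0.41), VPS50 at -0.02 (SE 0.06) and GNGT1 at -0.01 (SE 0.17) at 100 µM against 0 µM. None of the 4 passed the threshold. SAMD9L starts 30.3 kb from SAMD9.

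None of the 8 genes most like SAMD9 over the libraries was in the interferon lists. Those lists held 94 of the 16196 genes tested. Only the 11650 genes whose mean log2 CPM reached 1 were ranked, which leaves out list genes such as SAMD9L, IRF9 and DDX58. Nothing is read from that absence. Likeness was the Pearson correlation of log2 CPM over 21 libraries among 11650 genes, a description in which all points share the dose series and its 100 µM group. The highest were SNX25 at r = 0.892, MALT1 at 0.892, PPP2R5C at 0.891, KCTD9 at 0.886, AC016717.2 at 0.882, SFXN1 at 0.881, SORBS2 at 0.880 and CBX5 at 0.877. The most negative were ZNF598 at -0.889, AARS at -0.877, MYC at -0.873 and ATXN2L at -0.870. Over the 18 libraries without 100 µM, the r of SNX25 was 0.818 and that of PPP2R5C 0.686, and 4 of the first 8 were among the 50 highest.

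Among the other 8 genes of the report the highest r with SAMD9 was 0.481 for IFIT1 and 0.463 for IFIT3, and the lowest -0.503 for OAS3. Without 100 µM the r of IFIT1 was 0.606 and that of IFIT3 0.025, so the value for IFIT3 rested on the 100 µM libraries. That of OAS3 was -0.134 without them. DDX58 stood at 0.233 with them and 0.267 without, and SAMD9L at -0.078 and -0.007. The sign turned for IRF1, from 0.100 to -0.220, for IRF9, from -0.030 to 0.268, and for ISG15, from -0.167 to 0.159.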

How the data were processed

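Poly(dT)-selected RNA of 21 libraries was sequenced, and each library took its dose from its label. The deposited counts are whole numbers per gene with no normalization, and the deposited FPKM are the authors' values, which equal count over gene length and 1 constant per library. HISAT2, DESeq2 and GRCh38 are named per the submitters' processing notes, while the counting tool, strand setting and annotation were not given in the sources used here.

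Counts were filtered with filterByExpr, scaled by TMM and fitted with edgeR 4.0.16 (R 4.3.3) in 1 quasi-likelihood model of 7 dose coefficients, with 14 residual degrees of freedom. Benjamini-Hochberg adjustment ran over 16196 genes, with a threshold of 0.05. Intervals are 95% and come from the standard error. Ratios used log2 of CPM plus 0.1 and an exact permutation test (SciPy 1.17.1). Motifs were searched in RefSeq promoters. Both tests were tried first on simulated data. The 9 genes and the lists were chosen with earlier results of these data known. Named genes were the 9, up to 4 called genes per list and direction by smallest p (otherwise the 2 highest by FPKM), the 8 genes most like and 4 most unlike SAMD9 whose mean log2 CPM reached 1, and tested genes that start within 500 kb. SAMD9 counts among the 4 falls of the effector list. Alternatives were DESeq2 1.42.0 or its size factors, limma 3.58.1 on log2(FPKM + 1) and log2(FPKM + 0.1), no filter, a filter of 1 CPM in 3 libraries, the compared libraries alone, a replicate block, other pseudocounts, and each library left out. Figures were drawn with matplotlib 3.10.9.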

Additional observations from a re-analysis of the deposited data

How the results depend on the processing

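SAMD9 at 100 µM against 0 µM was -0.28 with limma on log2(FPKM + 1) and -0.81 on log2(FPKM + 0.1), where the pseudocount shrinks low genes. The other 8 genes gave 1 call in 690 combinations of gene, comparison and alternative, OAS3 at 100 µM, and SAMD9 gave 0 in 58 without the 0 and 100 µM groups. Depth is the limit for SAMD9L, DDX58 and IRF9.

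Genes called at 100 µM numbered 681 to 1786 with 1 library left out, and the list genes called 3 to 10. At 10 µM against 0.001 to 1 µM, 26 became 170 with no filter, 56 with DESeq2, 8 and 11 with limma on log2(FPKM + 1) and log2(FPKM + 0.1), and 6 to 60 with 1 library left out (17, 44, 60, 8 and 6 without 0.001 µM replicate 2, 0.1 µM replicate 1, 1 µM replicate 3 and 10 µM replicates 1 and 3). For the slope, 44 became 174, 90, 8 and 9 under the same 4 alternatives, and 10 to 75 with 1 library left out: 13 to 27 without any 1 of the 0.001 and 0.01 µM libraries, 75 and 15 without 0.1 µM replicates 1 and 2, 19 and 16 without 1 µM replicates 2 and 3, 16 and 10 without 10 µM replicates 1 and 3, and 20 without 100 µM replicate 3. The cause was not tested.

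The replicate numbers gave little sign of pairing. Same-numbered libraries of 0 and 100 µM correlated at -0.0658 to 0.139 in their deviations, and 13 of 63 same-numbered pairs exceeded 0.1. The median r was 0.0159 over all same-numbered pairs and 0.00739 over all differently numbered pairs. With the replicate block, 1318, 30 and 48 genes were called at 100 µM, at 10 µM and for the slope, 10 list genes were called and SAMD9 stood at -1.0, so no call on the 9 genes changed.

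Signs turned only in values that passed no test, with 1 library left out and, for 1 ratio, with another pseudocount. The ranges were -0.163 to 0.0641 for SAMD9, -0.0162 to 0.0672 for IFIT3 and -0.310 to 0.0587 for DDX58 at 10 µM, and for the slope -0.00197 to 0.0435 for SAMD9, -0.0120 to 0.0256 for IRF1, -0.0547 to 0.00922 for IRF9, -0.0516 to 0.0100 for ISG15, -0.00567 to 0.0506 for IFIT3 and -0.0346 to 0.0408 for DDX58. At 100 µM they were -0.205 to 0.176 for SAMD9L, -0.196 to 0.103 for IRF9, -0.512 to 0.0478 for DDX58, -0.0649 to 0.00541 for PTPN2, -0.0660 to 0.0484 for B2M and -0.0434 to 0.0814 for PSME1. The ratio of SAMD9 to OAS3 at 10 µM became 0.00134 with a pseudocount of 1.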
